A study of Homo sapiens with 20 samples.

Results

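Expression of the potassium channel genes was followed while neural progenitor cells made from H1 differentiated; H1 is an established line of human embryonic stem cells. The genes were taken by name: every coding record of the merged transcript catalogue with a symbol made of KCN, further letters and a number was kept, with 1 record per symbol, the one of highest mean where there was a choice. This gave 93 genes in 20 subfamilies, among 20237 coding records and 38369 records of all classes. Polyadenylated RNA was sequenced from 20 cultures collected before differentiation (day 0) and on days 1, 2 and 4, and then, after replating, on days 5, 11 and 18, with 3 cultures per day and 2 at day 5, 1 outlier culture of that day having been removed by the submitters. Day 0 cells had grown in proliferation medium with FGF on Matrigel. All later cells had been moved to differentiation medium that lacked FGF and held BDNF, and the cells of the last 3 days had also been replated at day 4 on poly-D-lysine and laminin, so time in culture, medium and plating cannot be told apart. All cultures came from 1 line, and the labels give no other genotype or treatment. Expression was given by the authors as FPKM (fragments mapped to a transcript, scaled by its length and by the size of the library), with 1 value per record and day over the cultures of that day. No value of a single culture was used here, so no value below carries an error, differences between days were not tested, and every statement on them is a description of these 7 pooled values. The number of reads behind each value is unknown. Wherever 7 values are given in a row, they follow the order of the days, from day 0 to day 18.

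Potassium channels let potassium ions leave or enter the cell along their gradient and so set the resting potential, end the action potential and space repeated firing. Their pore subunits fall into families by what opens them. Voltage-gated (Kv) subunits open on depolarization, calcium- and sodium-activated subunits open as these ions enter, inward rectifiers pass current best near rest, and K2P subunits, which carry a pair of pore domains in each chain, give leak current. Auxiliary subunits form no pore and change the gating or the transport of their partners, and silent Kv subunits form channels only together with Kv2 subunits. Neural progenitors are known to change their set of channels as they become excitable neurons.

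The feature that unites the pore subunits is the selectivity filter, a stretch of 5 codons that lines the narrowest part of the pore. Coding sequences of all 93 genes were found in the GENCODE annotation of GRCh37 (the assembly also called hg19), and the stretch was searched in them after translation, as threonine or serine, then valine, isoleucine, threonine or leucine, then glycine, then tyrosine, phenylalanine or leucine, then glycine. It was found once in 65 genes and at 2 places in 13, all of them K2P genes. The 15 genes without it were the 15 auxiliary subunits. Of 19303 other coding genes, 250 (1.3%) held the same pattern of codons somewhere. The stretches below are those of genes to which the results return, with several families of pore subunits among them, read 5′ to 3′ on the coding strand with the 5 filter codons in capitals.
KCNH8: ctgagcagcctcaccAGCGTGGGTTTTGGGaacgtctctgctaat
KCNH2: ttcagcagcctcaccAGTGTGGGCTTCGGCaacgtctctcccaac
KCND2: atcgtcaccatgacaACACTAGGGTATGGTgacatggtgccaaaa
KCNF1: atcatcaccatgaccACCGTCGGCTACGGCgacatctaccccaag
KCNN1: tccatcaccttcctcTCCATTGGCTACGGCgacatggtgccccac
KCNMA1: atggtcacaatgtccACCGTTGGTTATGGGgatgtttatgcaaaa
KCNJ2: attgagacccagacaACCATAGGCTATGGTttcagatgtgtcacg
KCNJ6: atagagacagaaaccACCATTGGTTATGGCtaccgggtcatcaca
KCNK10, first pore domain: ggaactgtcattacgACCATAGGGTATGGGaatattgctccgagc
KCNK10, second pore domain: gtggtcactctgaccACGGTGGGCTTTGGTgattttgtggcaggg
These lie in coding exons, at chr3:19479763-19479807 for KCNH8 (plus strand), chr7:150648582-150648626 for KCNH2 (minus strand) and chr7:119915779-120372978 for KCND2 (plus strand). The others lie at chr2:11053645-11053689 for KCNF1 (plus strand), chr19:18096176-18096220 for KCNN1 (plus strand), chr10:78869979-78870023 for KCNMA1 (minus strand), chr17:68171589-68171633 for KCNJ2 (plus strand) and chr21:39086977-39087021 for KCNJ6 (minus strand). KCNK10 holds its first at chr14:88693857-88707068 and its second at chr14:88654452-88658610 (minus strand). The intervals of KCND2 and KCNK10 span an intron, so the printed bases are not adjacent in the genome there. The fourth filter codon reads tyrosine in the first or single stretch of 62 genes and phenylalanine in 16, among them KCNH8 and KCNH2. In the second stretch of the K2P genes it reads phenylalanine in 11 and leucine in 2. KCNF1, a silent subunit, carries the same kind of filter as the subunits that form channels alone.

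Most potassium channel genes were listed at low levels. A mean over the 7 days of at least 0.5 FPKM was reached by 38 of the 93 genes (40.9%), against 62% of all coding records. Of the other 55, 34 had a mean below 0.1 FPKM, 11 genes were listed at 0 on at least 1 day, and KCNK16, a K2P gene, was listed at 0 on all days. The number of channel genes at 1 FPKM or more was 16, 20, 23, 25, 25, 27 and 34. Over the same days the number of all coding records at that level moved from 11468 to 11544. Thus 17.2% of the channel genes stood at 1 FPKM or more at day 0 and 36.6% at day 18, against 56.7% and 57% of coding records.

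Changes are given from here on as differences on the log2(FPKM + 0.1) scale. The median change of the 14443 records of all classes with a mean of at least 1 FPKM was -0.56 from day 0 to day 18, and lay between -0.28 and 0.04 for the 6 steps between adjacent days, so changes are given relative to the median of the same days unless said to be as deposited, and a gene is called higher or lower where it passed 2-fold. A minimum of 0.5 FPKM on the mean of all days lets in genes through the days on which they are high, so the counts over the 38 genes describe those genes and are not evidence about the family. KCNA2 passed it only with its day 11 value counted, KCNIP1 and KCNK3 only with their day 18 value, and KCNC4 only with both. Of these 38, 21 (55.3%) were higher at day 18 than at day 0, where 15.6% of the 12553 coding records above the same minimum were. A further 6 (15.8%) were lower, where 12.9% of coding records were. The median change of the 38 genes was 1.37, and that of the coding records was -0.02. As deposited, 18 of the 38 were higher (8.93% of coding records) and 6 lower (29.4% of coding records). With no minimum at all, 42 of the 93 were higher (15.3% of coding records) and 10 lower (8.97% of coding records). With a pseudocount of 1 FPKM, 2 of the 38 were lower (10.4% of coding records). Nearest to the limits were KCND3 at 1.15 and KCNK12 at -1.07 on the inside, and KCNT2 at 0.93 and KCNG1 at -0.44 on the outside. KCNK3 with 0.521 FPKM was the lowest mean let in and KCNJ12 with 0.445 FPKM the highest left out.

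**Figure D1:**
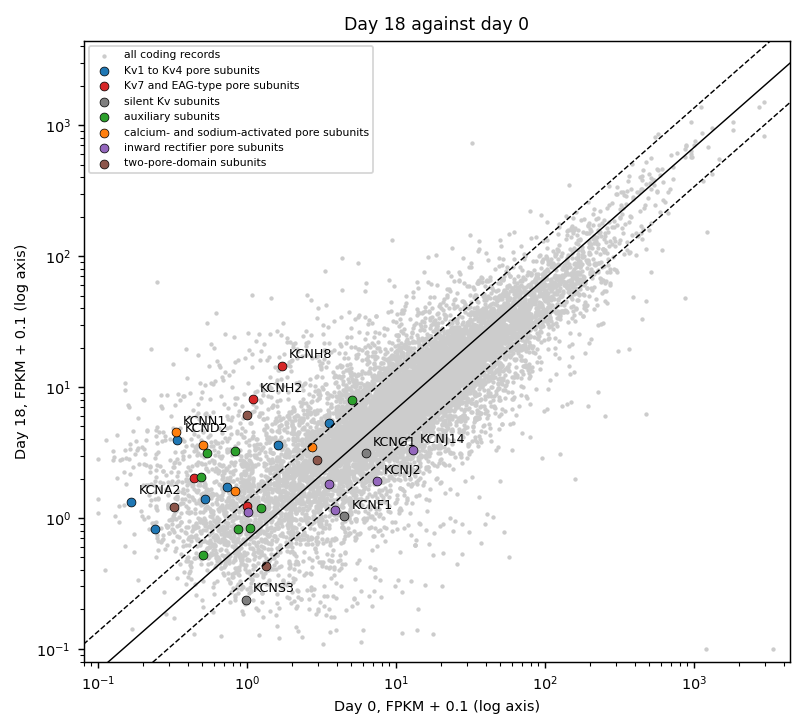
FPKM + 0.1 at day 18 (vertical, log axis) against day 0 (horizontal, log axis) for coding records with a mean of at least 0.5 FPKM (grey) and 35 channel genes (coloured by role). The solid line is the median change of -0.56 and the dashed lines are 2-fold from it; of the coloured genes, 19 lie on or above the upper line and 6 on or below the lower.

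By role, and read against the 15.6% and 12.9% of coding records given above, all 9 Kv1 to Kv4 pore subunits above the minimum were higher at day 18, as were 3 of 5 Kv7 and EAG-type subunits, 3 of 4 calcium- and sodium-activated subunits, 4 of 8 auxiliary subunits and 2 of 4 K2P subunits. None of the 5 inward rectifiers and none of the 3 silent Kv subunits was, and 3 and 2 of these were lower. The remaining lower gene was a K2P gene. These counts depend on the minimum: without it, 5 of 15 inward rectifiers were higher and 3 lower, and 2 of 10 silent Kv subunits were higher and 3 lower, while 14 of 17 Kv1 to Kv4 subunits were higher and 0 lower (15.3% and 8.97% of coding records). The summed FPKM of all 17 Kv1 to Kv4 genes, above or below the minimum, was 7.27 at day 0 and 23.1 at day 18. The corresponding sums were 4.12 and 13.1 for the 8 calcium- and sodium-activated genes, and 29 and 12.2 for the 15 inward rectifiers, of which KCNJ14, whose record is merged with that of its neighbour GRWD1, alone gave 12.8 and 3.18.

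**Figure D2:**
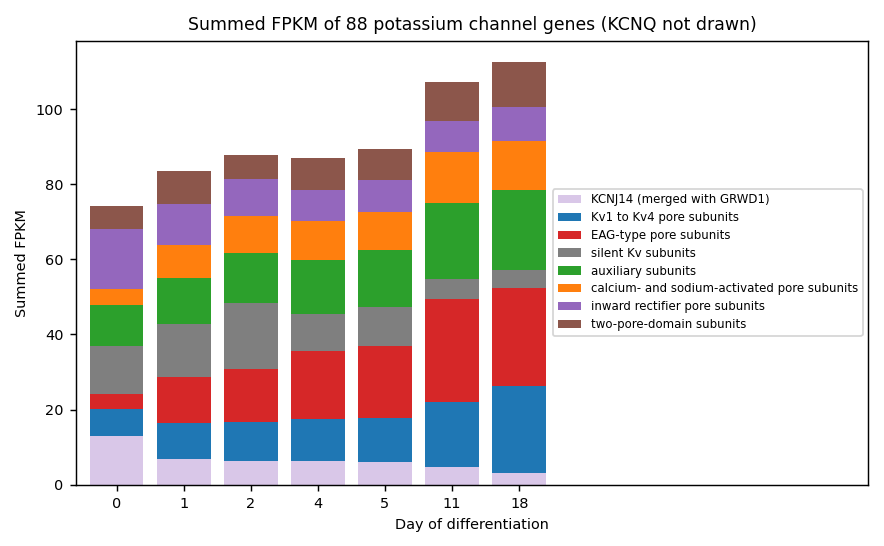
Summed FPKM (vertical axis) of 88 potassium channel genes on each day, stacked by role, with the merged KCNJ14 record drawn apart and the KCNQ subfamily not drawn; each bar is a sum of 1 pooled value per gene and has no error. The Kv1 to Kv4 segment widens from 7.27 to 23.1 FPKM and the EAG-type segment from 4.03 to 26, while the silent Kv segment narrows from 12.9 to 4.98.

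**Figure D3:**
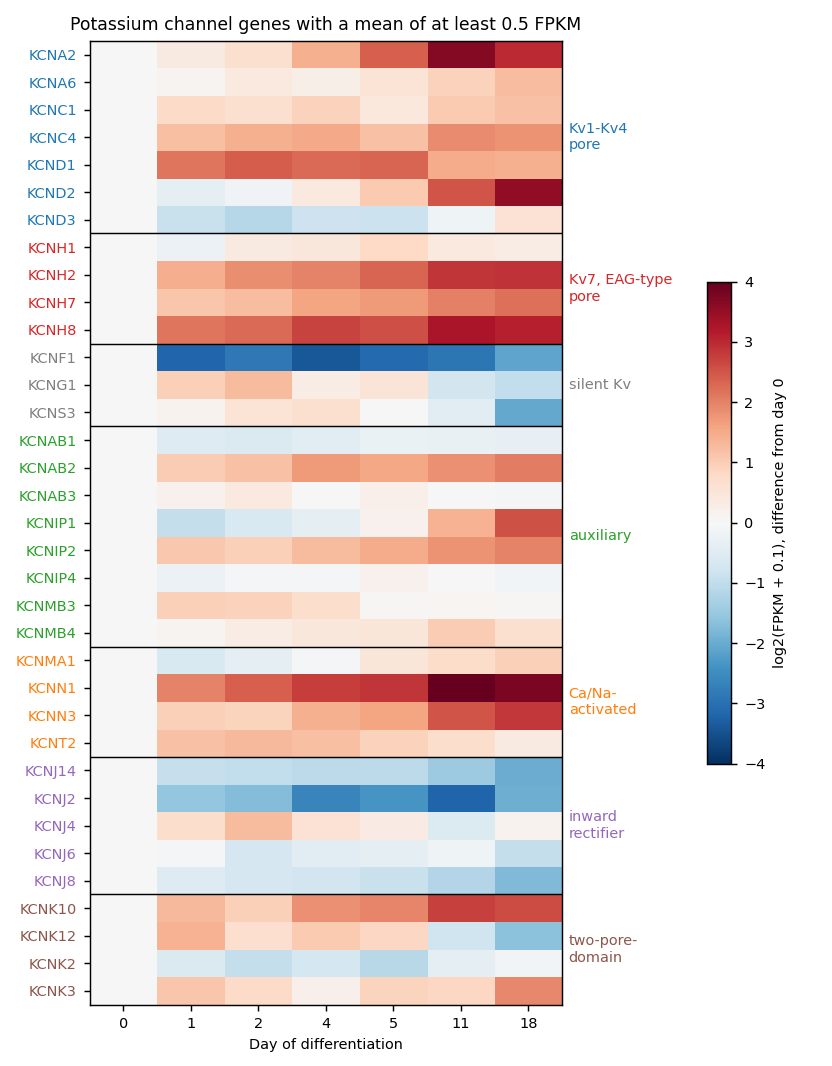
Difference in log2(FPKM + 0.1) from day 0, as deposited, for 35 channel genes with a mean of at least 0.5 FPKM (rows, grouped by role) on each day (columns). Red is above and blue below the day 0 value; the Kv1 to Kv4 block is red at day 18 in all 7 rows drawn, and KCNF1 and KCNJ2 are blue from day 1 on.

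Among Kv1 to Kv4 genes, the Kv4 subunits carry the transient A-type current of dendrites. KCND3 (chr1:112318454-112531777, minus strand) stood at 3.44, 1.82, 1.49, 1.88, 1.86, 3.06 and 5.22 FPKM. KCND2 (chr7:119913722-120390387, plus strand) stood at 0.24, 0.161, 0.206, 0.346, 0.609, 1.85 and 3.87 FPKM on the same days. KCND2 thus had a relative change of 4.10, and the ratio of KCND3 to KCND2 was 14.3 at day 0 and 1.35 at day 18. KCND1, on the X chromosome, had another course, with 0.423, 2.2, 2.73, 2.39, 2.54, 1.36 and 1.29 FPKM. Its level exceeded that of KCND3 on days 1 to 5 and was 0.247 times that of KCND3 at day 18. The deposited KCND3 record holds 13.9% of the exon bases of the gene in GENCODE, against 88.1% for KCND2 and 98.7% for KCND1, which bears on levels compared between genes. Among the other genes it is below that of KCND3 for KCNK12 (10.1%) and KCNJ6 (12.4%), and it is also low for KCNC4 (14.9%) and KCNA2 (15.1%).

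The A-type channels assemble with KChIP proteins, calcium-binding auxiliary subunits. KCNIP1 stood at 0.437, 0.179, 0.25, 0.308, 0.501, 1.3 and 3.04 FPKM, a relative change of 3.11. It passed the minimum of 0.5 FPKM only with its day 18 value counted, so that high value describes the choice. Like KCND2, it stood below its day 0 value at day 1. On the scale with 0.1 FPKM added this was less than 2-fold for both genes, though the FPKM of KCNIP1 themselves differed by more. KCNIP1 and KCND2 passed 2-fold upward in both of the last steps. KCNIP2 had 0.725, 1.64, 1.49, 1.87, 2.2, 2.74 and 3.16 FPKM, and its ratio to KCNIP1 was 1.66 at first, 9.19 at day 1 and 1.04 in the end. Exon bases of KCNIP2 are shared (36.9%) with a noncoding record on the other strand that lay between 3.5 and 5.89 FPKM.

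Kv3 subunits open at strongly depolarized potentials and close fast, which allows firing at high rates. KCNC1, the highest of them, stood at 1.51, 2.62, 2.42, 2.92, 2.07, 3.24 and 3.54 FPKM. KCNC4 had 0.14, 0.454, 0.539, 0.59, 0.441, 0.799 and 0.73 FPKM, most of its difference lying in the first step. It passed the minimum only with both its day 11 and its day 18 value counted.

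KCNA2 and KCNA6 encode Kv1 subunits, low-threshold channels of axons. KCNA2 was listed at 0.0676, 0.113, 0.164, 0.346, 0.786, 2.05 and 1.23 FPKM, with a relative change of 3.55. It passed the minimum only with its day 11 value counted, so that high value describes the choice. It was the only gene of the 38 past 2-fold between days 4 and 5, and not so as deposited. KCNA6 had 0.638, 0.699, 0.86, 0.776, 0.983, 1.29 and 1.63 FPKM, so that the ratio of KCNA6 to KCNA2 was 9.44 at day 0 and 1.33 at day 18. KCNAB2 and KCNAB3, cytoplasmic beta subunits of Kv1 channels, differed: KCNAB2 had 0.391, 0.894, 1, 1.49, 1.34, 1.63 and 1.95 FPKM, while KCNAB3 lay between 1.1 and 1.54 FPKM on all days.

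Silent subunits, which open only in company with Kv2 subunits, stood lower at day 18 than at day 0 where they lay above the minimum. Below it they differed in both directions. KCNF1 (chr2:11052063-11054350, plus strand) was listed at 4.4, 0.394, 0.518, 0.325, 0.424, 0.508 and 0.937 FPKM. Its relative change in the first step, -3.10, was the lowest of the 38 genes. In the last step it passed 2-fold in the other direction with a relative change of 1.05, and its change as deposited, 0.77, did not. KCNG1 had 6.16, 12.1, 14.8, 7.67, 8.81, 3.68 and 3.04 FPKM, with its highest value at day 2. KCNS3 stood at 0.876, 0.981, 1.32, 1.43, 0.857, 0.613 and 0.138 FPKM. KCNG2, below the minimum and named through its day 0 value, had 1.16, 0.362, 0.465, 0.119, 0.122, 0.0637 and 0.0579 FPKM. In the other direction, and all below the minimum, KCNS2 was listed at 0.0391 FPKM at day 0 and 0.468 at day 18. KCNV1 had 0.00766 and 0.0615 on these days, KCNV2 0.172 and 0.234, and KCNG3 0.0101 and 0.0206. KCNV1 and KCNG3 were highest at day 2, and KCNV2 and KCNG3 did not pass 2-fold. KCNS1 and KCNG4, also below the minimum, were lower at day 18, with 0.0195 and 0.0143 for KCNS1 and 0.0123 and 0.00617 for KCNG4. KCNS1, KCNS2, KCNV1, KCNV2, KCNG3 and KCNG4 were named here after their values were seen.

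Members of the EAG-type family were among the highest channel genes at day 18. KCNH8 (chr3:19190017-19577135, plus strand), an ELK-type subunit that opens at negative potentials, stood at 1.61, 7.43, 8.08, 11, 10.1, 16.4 and 14.5 FPKM. KCNH2 (chr7:150642050-150675014, minus strand), the ERG channel best known from cardiac repolarization, had 0.99, 2.91, 3.82, 4.24, 5.38, 7.82 and 7.94 FPKM. KCNH7, another ERG subunit, which is found mainly in the nervous system, had 0.338, 0.847, 0.926, 1.22, 1.33, 1.69 and 1.93 FPKM. All 3 passed 2-fold at day 1 and again over the whole course, with relative changes from day 0 to day 18 of 3.65, 3.44 and 2.77. By level, KCNH8 moved from place 12 among the channel genes at day 0 to place 2 at day 18, and KCNH2 from place 17 to place 3. The antisense record at KCNH2, which overlaps 56.3% of the exon bases of that gene, stayed between 0.0304 and 0.24 FPKM.

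**Figure D4:**
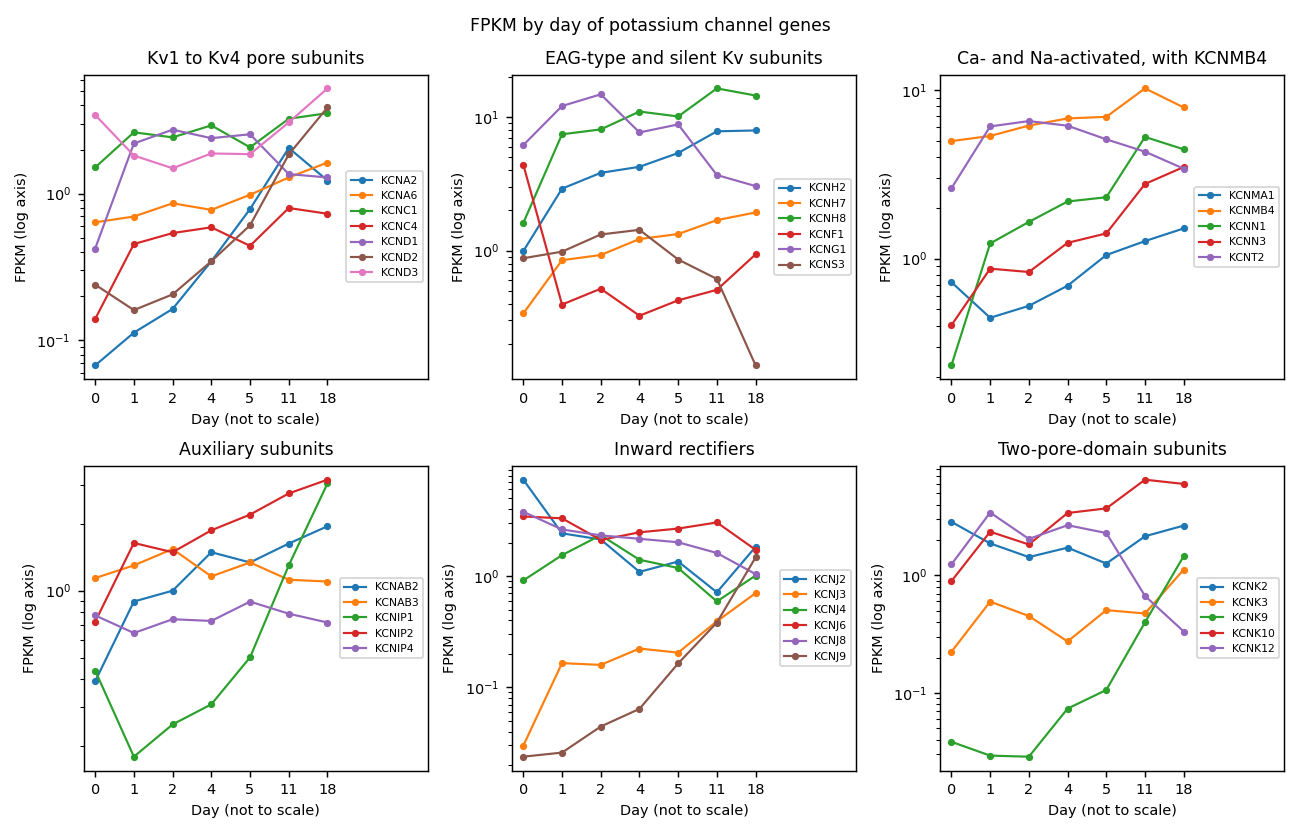
FPKM (log axis, different in each panel) by day (days evenly spaced, not to scale) for channel genes in 6 groups; each point is 1 pooled value per day, without error. KCND2, KCNIP1, KCNJ9 and KCNK9 are highest at day 18, with most of the difference after day 5. KCNJ9 and KCNK9 were named through that day 18 value, and KCNIP1 passed the minimum of 0.5 FPKM only with its own counted. KCNH8 and KCNN1 already stand higher at day 1, and KCNF1 and KCNJ2 stand lower from day 1.

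Channels opened by calcium or sodium shape the hyperpolarization that follows an action potential. KCNN1 (chr19:18062111-18109929, plus strand), a small-conductance subunit gated through bound calmodulin, stood at 0.233, 1.23, 1.65, 2.18, 2.31, 5.26 and 4.44 FPKM. Its relative change of 4.33 was the largest of the 38 genes. KCNN3, of the same subfamily, had 0.403, 0.872, 0.833, 1.24, 1.41, 2.77 and 3.49 FPKM, and both passed 2-fold at day 1 and again between days 5 and 11. As deposited, KCNN1 passed in both steps, while KCNN3, with changes of 0.95 and 0.93, did not.

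KCNMA1, the pore subunit of the large-conductance BK channel, stood at 0.725, 0.446, 0.525, 0.691, 1.05, 1.27 and 1.51 FPKM. Its relative change of 1.53 passed 2-fold, and its change as deposited, 0.97, did not. KCNMB4, its neuronal beta subunit, was higher on every day, with 4.97, 5.33, 6.14, 6.77, 6.92, 10.2 and 7.86 FPKM, and the ratio of KCNMB4 to KCNMA1 lay between 5.19 at day 18 and 12 at day 1. KCNMB2, below the minimum and named through its day 18 value, had 0.27, 0.0748, 0.11, 0.106, 0.16, 0.588 and 1.23 FPKM. KCNT2, a sodium-activated subunit, had its highest value early, with 2.61, 6.07, 6.53, 6.13, 5.09, 4.3 and 3.41 FPKM, and did not pass 2-fold between days 0 and 18.

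The inward rectifiers as a group were highest at day 0. KCNJ2 (chr17:68164814-68176181, plus strand), a strong rectifier that holds the resting potential, was listed at 7.34, 2.42, 2.13, 1.09, 1.35, 0.714 and 1.83 FPKM, a relative change of -1.39 over the course with a last step of 1.52 in the other direction. KCNJ8, the pore subunit of the vascular type of ATP-sensitive channel, had 3.78, 2.62, 2.32, 2.16, 2.01, 1.61 and 1.04 FPKM, lower on each day than on the one before. Its sulfonylurea receptor ABCC9 had 5.68 FPKM at day 0 and 1.31 at day 18, with a relative change of -1.48 against -1.20 for KCNJ8. ABCC8, the receptor known from neurons and beta cells, stayed at or below 0.0946 FPKM. KCNJ14 was listed at 12.8, 6.73, 6.36, 6.21, 6.1, 4.64 and 3.18 FPKM, and these values belong to the merged record of GRWD1 and KCNJ14.

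G-protein-gated inward rectifiers (GIRK), which carry the slow inhibition by transmitters, have 4 subunits, of which KCNJ6 alone lay above the minimum. KCNJ6 stood at 3.43, 3.3, 2.11, 2.47, 2.67, 3.03 and 1.72 FPKM. KCNJ9, below the minimum, had 0.0238, 0.0259, 0.0444, 0.064, 0.164, 0.382 and 1.47 FPKM, and KCNJ3, named here after its values were seen, had 0.0299 FPKM at day 0 and 0.702 at day 18. The ratio of KCNJ6 to KCNJ9 was 144 at first, 16.3 at day 5 and 1.17 in the end, and that of KCNJ6 to KCNJ3 was 115 and 2.45 at the ends of the course. KCNJ5, the remaining subunit, also named after its values were seen, had 0.126 and 0.0538 FPKM there. KCNJ9 was named through its day 18 value, so its course describes that choice. The KCNJ6 record holds 12.4% of the exon bases of the gene in GENCODE, against 72.1% for KCNJ9 and 58.9% for KCNJ3, which bears on these ratios.

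K2P channels give the background leak on which the resting potential rests. KCNK10 (chr14:88646454-88793256, minus strand), a channel opened by stretch and lipids, stood at 0.893, 2.35, 1.83, 3.39, 3.71, 6.51 and 5.99 FPKM. KCNK2, of the same branch and named here after its values were seen, lay between 1.26 and 2.85 FPKM, and the ratio of KCNK10 to KCNK2 was 0.313 at day 0 and 2.26 at day 18. The acid-sensitive channels KCNK3 and KCNK9 were highest at day 18, KCNK3 with 0.224, 0.598, 0.451, 0.274, 0.506, 0.474 and 1.12 FPKM. KCNK9, below the minimum, had 0.0384, 0.0293, 0.0287, 0.0736, 0.106, 0.399 and 1.46 FPKM. KCNK9 was named through its day 18 value. KCNK3, with a mean of 0.521 FPKM, passed the minimum only with its day 18 value counted. The high day 18 values of KCNK3 and KCNK9 thus describe that choice. KCNK12 followed another course, with 1.24, 3.42, 2.04, 2.67, 2.29, 0.668 and 0.333 FPKM.

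Most 2-fold differences between adjacent days fell into the first step and the steps after day 5. Between days 0 and 1, 17 of the 38 genes were higher (5.16% of coding records), among them KCND1, KCNH8, KCNN1 and KCNAB2, and 2, KCNF1 and KCNJ2, were lower (2.43%). With a pseudocount of 1 FPKM in place of 0.1, 5 were higher (1.91% of coding records), namely KCND1, KCNH2, KCNH8, KCNK12 and KCNT2. Between days 1 and 2 none of the 38 passed 2-fold in either direction, where 0.151% of coding records were higher and 0.191% lower. The same held for the 38 between days 2 and 4, where the shares of coding records were 0.127% and 0.852%, while KCNG2, below the minimum, had a relative change of -1.37. Between days 4 and 5, across replating, 1 gene was higher (0.510% of coding records) and 0 lower (0.0478%). Between days 5 and 11, KCNA2, KCND2, KCNIP1, KCNN1 and KCNN3 were higher (5 genes, 3.12% of coding records), and KCNG1 and KCNK12 were lower (2 genes, 3.31%). Of these, KCNN3 did not pass 2-fold as deposited, and KCNA2 passed the minimum only through its day 11 value. With a pseudocount of 1 FPKM, KCNN1 was the 1 gene higher (1.68%) and 0 were lower (1.62%). Between days 11 and 18, KCND2, KCND3, KCNF1, KCNIP1, KCNJ2 and KCNK3 were higher (6 genes, 2.45%), and KCNS3 was lower (1 gene, 1.41%). Of these, KCND3 and KCNF1 did not pass 2-fold as deposited, and KCNIP1 and KCNK3 passed the minimum only through their day 18 value. The steps differ in length, so these counts are not rates.

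**Figure D5:**
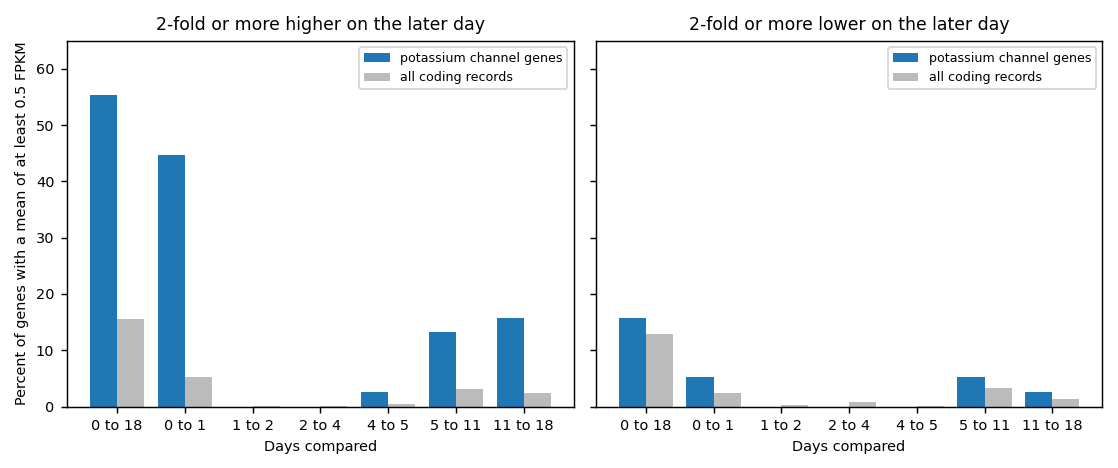
Percent of genes with a mean of at least 0.5 FPKM that were 2-fold or more higher (left) or lower (right) on the later of the days compared, relative to the median record, for the 38 channel genes (blue) and 12553 coding records (grey). The bars for higher genes read 55.3% and 15.6% from day 0 to 18 and 44.7% and 5.16% from day 0 to 1, while those for lower genes from day 0 to 18 read 15.8% and 12.9%.

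By the day of the highest value, 14 of the 38 genes peaked at day 18 (9.82% of coding records did) and 7 at day 11 (8.83%). KCNIP1 and KCNK3 of the former, and KCNA2 and KCNC4 of the latter, passed the minimum only with that highest value counted. Another 7 were highest at day 0 (43.3% of coding records), among them KCNJ2, KCNJ6, KCNJ8 and KCNF1, and 10 on day 1, 2, 4 or 5 (38.0%), among them KCND1, KCNG1, KCNK12 and KCNT2. On all 6 later days 19 genes lay above their day 0 value (18.6% of coding records).

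The genes of proteins that work with these channels were read from lists of known partners. The counts of this and the lists that follow compare with 15.6% of coding records higher and 12.9% lower. Of 14 Kv partners above the minimum, 8 were higher at day 18 and 1 was lower. CNTNAP2, which holds Kv1 channels beside the node of Ranvier and had the highest mean of the list, was the lower one, with 43.7 FPKM at day 0 and 14 at day 18. CNTN2, its cell adhesion partner, had 4.87, 5.74, 8.22, 15.4, 27.2, 75.7 and 28 FPKM. DPP10 and DPP6, membrane partners of Kv4 channels, had 1.01 and 0.31 FPKM at day 0 and 6.47 and 1.85 at day 18.

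Among 7 G-protein genes and regulators of GIRK channels above the minimum, 4 were higher and 0 lower, with GNAO1 at 0.555 FPKM at day 0 and 14.2 at day 18, and GNB1, the highest, at 234 and 153. Of 6 regulators of Kv7 channels, 2 were higher and 1 lower, and NEDD4L, a ubiquitin ligase that acts on them, had 6.27 and 25.9 FPKM. CALM2, 1 of the calmodulin genes, in a record merged with another gene and the highest of that list, had 369 and 201. LRRC55, a BK gamma subunit and the only 1 of 4 above the minimum, had 1.66 and 4.69 FPKM. Of 5 HCN and CNG channels, relatives that pass sodium as well as potassium, 4 were higher. CNGA3 stood at 0.549 FPKM at day 0 and 2.89 at day 18, and HCN4, a pacemaker channel, at 0.885 and 3.71.

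Potassium leaves through channels and is carried back by pumps and cotransporters, and of 10 such genes 6 were higher and 2 lower. ATP1B2, a beta subunit of the sodium pump, had 1.89, 4.21, 4.86, 4.68, 5.96, 10.8 and 16 FPKM. SLC12A5, the neuronal potassium-chloride cotransporter, had 0.225 FPKM at day 0 and 2.37 at day 18. ATP1B3, another beta subunit, with the highest mean of the list, had 57.5 and 26.4 FPKM.

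Levels of cell type markers also differed between the days, and their counts too compare with 15.6% and 12.9% of coding records. Of 9 neuron markers above the minimum, 8 were higher at day 18, and the summed FPKM of the list was 551 at day 0 and 1656 at day 18, of which TUBB3, in a record merged with other genes, gave 382 and 502. All 8 cycling markers were lower (618 and 108), and of 9 neural progenitor markers 2 were higher and 1 lower, with sums of 3707 and 1828, of which VIM gave 2948 and 1493. At day 0, before differentiation, SOX2 and NES of that list stood at 126 and 513 FPKM. The 2 higher ones, PAX6 and HES5, stood at 4.31 and 1.95 FPKM at day 0 and at 10.4 and 20 at day 18. PROM1, the lower one, had 38.8 and 5.06 FPKM on these days. Of 7 mesenchymal markers above the minimum 4 were lower, among them PDGFRB, in a record merged with another gene. The list, in which COL1A1 was listed at 0 on all days, summed to 650 at day 0 and 57.8 at day 18. Of these sums TAGLN gave 367 and 19.4, and COL3A1 gave 238 and 30.5. Endothelial and blood markers summed to 27.3 and 1.61, at day 0 mostly KDR, with CDH5 at 2.34 and 0.025 FPKM. Of 3 astrocyte markers above the minimum 1 was higher and 1 lower, with sums of 104 and 82.7 and GFAP at or below 0.186 FPKM, and of 2 oligodendrocyte lineage markers 1 was higher, with sums of 35.4 and 34.1, of which PDGFRA, in a merged record, gave 27.3 and 16.4. The part of these shifts in the differences of the channel genes was not tested, and in bulk samples fewer cells of a type and less RNA per cell cannot be told apart.

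Of the 93 channel genes, 28 share exon bases with a record on the other strand, and 13 of these are among the 38. The labels name a TruSeq RNA-Seq kit, and whether fragments were assigned by strand is not given in the sources used here, so such overlapping records cannot be told apart in full. Leaving them out, 16 of 25 genes were higher at day 18 and 3 lower, against the 15.6% and 12.9% of coding records given above. Those shares include coding records that overlap others, and no share was computed without them. Among the 6 lower genes, KCNS3, KCNJ14 and KCNJ8 share such bases, and KCNF1, KCNJ2 and KCNK12 do not. For KCNS3 the shared part is 79.4% of its exon bases and the other record lay at or below 0.0926 FPKM, and for KCNN1 it is 19.5% with the other record between 0.0709 and 0.228 FPKM. For KCNJ6 it is 36.7%, with the other record between 0.111 and 0.6 FPKM. Of the 55 genes below the minimum, 32 were listed higher at day 18 than at day 0, 21 lower and 2 equal. The 6 genes above the minimum that met no naming rule were KCNAB1, KCNH1, KCNIP4, KCNJ4, KCNK2 and KCNMB3, and their relative changes from day 0 to day 18 lay between 0.24 and 0.87.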

How the data were processed

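RNA-Seq libraries of 20 cultures were prepared with a TruSeq RNA-Seq kit and sequenced as paired ends on a HiSeq 2000. The authors aligned reads to hg19 with TopHat2 at default options (also named in the submitters' processing notes), assembled transcripts with Cufflinks and estimated FPKM with Cuffdiff2, with versions not given in the sources used here. The deposited FPKM are 1 value per record and day, estimated over the cultures of that day, and 0 columns hold a single culture. They are scaled by transcript length and library size, so depth is unknown, and a larger share taken by other genes lowers a value. Exon coordinates and names came from the deposited transcript table. Its columns of the authors' own comparisons of days (test status, values, fold changes, statistics, p and q) were not used.

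Changes were computed in Python 3.11.15 (numpy 2.4.6, pandas 2.3.3, with figures by matplotlib 3.10.9) as log2(FPKM + 0.1), minus the median of records with a mean of at least 1 FPKM. Records with a mean of at least 0.5 FPKM were counted as higher or lower at 2-fold. A fold on this scale understates the change of low genes. With 1 value per day no test was possible. The code that makes the calls was tested on simulated data, which says nothing about the error of these values. Members and lists were chosen with earlier results of these data known. Genes were named if among the 10 of highest mean, highest of their subfamily with a mean of at least 0.5, past 2-fold both as deposited and relative to the median, or below 0.5 with a day at 1 FPKM or more. Of each partner list the gene of highest mean and up to 4 with large changes were named, and genes named after their values were seen are marked or were added for comparison with these. Sequences came from GENCODE coding transcripts of GRCh37. Alternatives were other pseudocounts, minimums and scaling, records with a single symbol and, chosen after seeing the data, records sharing no exon base. Some genes and sequences are not reported here.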

Additional observations from a re-analysis of the deposited data

How the results depend on the processing

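No paired analysis was possible because the files hold 1 value per day, although the labels share replicate numbers between days; for the same reason leaving out single replicates could not be run. The median change of the genes with a mean of at least 0.5 FPKM from day 0 to day 18, 1.37, was 1.42 with a pseudocount of 0.01 and 1.04 with 1, 1.60 with a mean of at least 0.1 FPKM, 1.04 with at least 1 and 0.87 with no minimum. It was 0.81 as deposited, 1.53 over records with a single symbol and 1.79 over records sharing no exon base with another, a choice made after seeing the data. With a pseudocount of 1, genes higher at day 1 numbered 5 in place of 17, those higher and lower at day 11 than at day 5 numbered 1 and 0 in place of 5 and 2, and those lower at day 18 than at day 0 numbered 2 in place of 6. With a mean of at least 0.1 FPKM, 36 of 59 genes were higher at day 18 (21 of 38 at 0.5), 9 were higher at day 11 than at day 5, and 4 were lower at day 1 (2 at 0.5). With a mean of at least 1 FPKM, 13 of 26 were higher at day 18 and 3 at day 11 than at day 5. With no minimum, 42 were higher and 10 lower at day 18, 9 were higher at day 11 than at day 5 and 6 were lower at day 1. Among records sharing no exon base, 11 were higher at day 1, 1 was lower at day 11 than at day 5 and 3 were lower at day 18. Shares of coding records were not computed for minimums of 0.1 and 1 FPKM or for records sharing no exon base. Nor were they for adjacent days with no minimum. Such counts describe the channel genes alone and are not set against a background. Of 54 alternative counts, 25 equalled the count reported, 13 differed within 1.5 times and the 16 given here lay beyond it. The median kept its sign in every alternative run and was equal to 2 decimals in 1, the sum of all coding records of a symbol. The minimums change which genes are counted; the cause of the other differences was not tested. Depth, and with it the precision of low values, is unknown.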
